A study of Homo sapiens with 16 samples.

Results

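The 10 genes described here encode heat shock chaperones and their helpers, and were chosen by name. Peaks of RNA immunoprecipitation followed by sequencing (RIP-seq) that lay on the transcribed strand within each gene's hg19 interval were taken as its own. Overlapping peaks of all 8 lists were joined into regions, and 8 of the 36802 regions of the series fell in these genes. They belonged to 3 of the 10 genes, BAG3, HSP90AA1 and DNAJB1, and the other 7 genes had no peak in any list. In the full lists BAG3 and HSP90AA1 had the same regions throughout, and DNAJB1 alone had regions missing from some lists.

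RNA was measured in H1299, an established line of human lung carcinoma. The cells stably expressed PABPC1, which coats the poly(A) tails of cytoplasmic mRNAs, with a Myc tag through which it was precipitated. The tagged protein was wild type (WT) or carried K512R, a lysine replaced by arginine, and cells received 500 µM sodium arsenite (AS) or none. Arsenite stresses cells by oxidation and drives stalled mRNAs into stress granules. The 8 peak lists form 4 pairs, and in 3 of them the list's name contradicts the sample record. For D the record gives input RNA, WT with AS, and the name K512R with AS. For B the record gives input RNA, WT without AS, and the name WT with AS. For C the record gives the immunoprecipitate (IP), WT with AS, and the name K512R without AS. For A the record gives the IP, WT without AS, and the name agrees on the construct and treatment. D and B against C and A is thus input against IP by the record, and AS against no AS by the names. Comparisons are introduced with both readings, since the conflict was not settled. The 8 samples titled K512R have no list analysed here. Whether replicates came from separate cultures is not stated, and all groups share the H1299 background and a stably expressed tagged PABPC1. What the cells kept of their own PABPC1 is not given in the labels, and markers of the cell line were not analysed here.

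The lists held 19953 to 25111 peaks, and read depth is unknown because they give no counts. Peaks in each list carry running numbers that follow genome position in all 8 lists, and only 49.7% to 52.1% of the numbers are listed. A gap in the numbers therefore marks a peak that was numbered but not listed. The names of all 8 lists carry the word mRNA, so the lists may be a part of a longer numbered set. How peaks were selected for the lists is not stated. In bulk lysates, fewer cells that hold an RNA and less of it per cell cannot be told apart.

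Molecular chaperones bind unfolded or partly folded proteins and keep them from aggregating. Many of their genes are switched on by heat shock factor 1 (HSF1) when proteins unfold, as they do under heat or arsenite, and HSF1 binds inverted repeats of GAA called heat shock elements. HSP70 proteins bind and release their clients in a cycle driven by ATP, which J-domain proteins such as DNAJB1 start and exchange factors such as BAG3 move on, and some clients pass on to HSP90. Stretches of 60 bases were taken from RefSeq's promoter windows (GRCh38.p14, 5′ to 3′ on the gene's strand). They show inverted GAA pairs in a gene whose peaks differed (DNAJB1), in one with the same peaks throughout (HSP90AA1) and in 3 without a peak. A pair is shorter than the 3-unit forms counted below, which the windows of DNAJB1, HSPA1A and HSPA1B lacked. The HSP90AA1 stretch belongs to the downstream of its 2 starts, 52705 bp from the upstream one. The peaks of that gene lay 0 and 37664 bp from its first annotated base, so they are not tied to this stretch. Capitals mark matches to GAANNTTC or TTCNNGAA, which can overlap and read the same on both strands.
DNAJB1, chr19:14518426-14518485, minus strand: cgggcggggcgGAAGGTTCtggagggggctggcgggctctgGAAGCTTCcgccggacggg
HSP90AA1, chr14:102087089-102087148, minus strand: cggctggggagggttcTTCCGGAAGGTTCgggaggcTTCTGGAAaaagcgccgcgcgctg
HSPA8, chr11:123062156-123062215, minus strand: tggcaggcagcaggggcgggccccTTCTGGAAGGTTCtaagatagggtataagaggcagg
HSPA1A, chr6:31815411-31815470, plus strand: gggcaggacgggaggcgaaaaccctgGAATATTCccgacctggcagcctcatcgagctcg
HSPA1B, chr6:31827607-31827666, plus strand: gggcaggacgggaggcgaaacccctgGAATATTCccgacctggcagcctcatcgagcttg

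All 10 genes were in the promoter table, with 16 windows of 250 bases before to 50 bases after a start. At least 1 window held a match in 8 of the 10 genes (80.0%), while 16.2% of the 27305 genes in the table had one. By window it was 9 of 16 (56.3%), against 13.5% of all 35116 windows. The longer 3-unit forms GAANNTTCNNGAA or TTCNNGAANNTTC, which contain the pair, occurred in 4 of the 10 genes (HSP90AA1, HSP90AB1, HSPA8 and HSPD1) and in 0.608% of all genes. BAG3 and HSPA5 had no match to these letters in their windows. A match describes the sequence and is not a measured binding site. Matches occurred both in genes with peaks and in genes without, but in HSP90AA1 only at the downstream start.

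**Figure D1:**
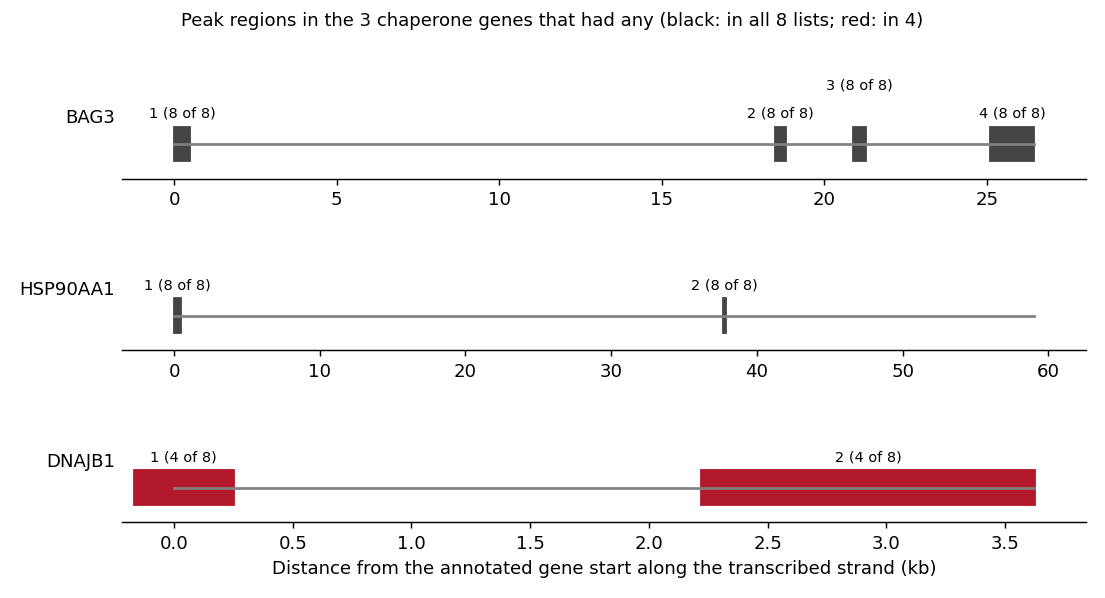
Position of the 8 regions in the 3 genes that had any. The x axes give the distance in kb from the gene's start along the transcribed strand, on a scale of its own for each gene, and each box is a region with its number and the count of lists that held it. The 6 regions of BAG3 and HSP90AA1 were in all 8 lists and both regions of DNAJB1 in 4.

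Of these 8 regions, 6 were in all 8 lists, and 29.5% of all 36802 regions were. No peak lay on the opposite strand in any of the 10 intervals. DNAJB1 on the minus strand of chromosome 19 (14625581 to 14629201) encodes a J-domain protein that delivers clients to HSP70 and stimulates its ATPase. Its region 1, 421 bp at 14628951 to 14629371, spans the annotated start and reaches 170 bp upstream of it. Region 2, 1407 bp at 14625576 to 14626982, reaches the 3' end of the gene and 5 bp past it. Both had identical ends in every list that held them.

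In DNAJB1, region 2 had no peak in D1, D2, B1 or B2, and a peak in C1, C2, A1 and A2. It was lost in B against A (by the record input against IP without AS, by the names AS against no AS in WT) and in D against C (by the record input against IP with AS, by the names AS against no AS in K512R). A region was called lost where both lists of the second pair held it and neither of the first did, and gained in the reverse case. Region 1 did not follow that split. It had a peak in D2, B2, A1 and A2 and none in D1, B1, C1 or C2. It was lost in C against A (AS against no AS in WT IP by the record, K512R against WT without AS by the names). In all, 13 of the 36802 regions (0.0353%) had this same pattern over the 8 lists, DNAJB1 region 1 included. The pattern was read off region 1 itself and the shares of other patterns were not computed, so this share does not show it to be unusual.

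Peaks covered 0 and 421 bp of DNAJB1 in D, 0 and 421 bp in B, 1407 bp in both lists of C and 1828 bp in both lists of A. Every list of D and B lay below every list of C and A, and the lists numbered 1 of D and B held no peak in the DNAJB1 interval. RefSeq's promoter table also gives DNAJB1 a start at 14529271 in GRCh38.p14, upstream of that at 14518397. The interval of 3621 bp is too short to hold both. The nearest region outside it (14640022 to 14640582, minus strand, 10821 bp away) was in 4 lists. In D1 and B1 the next listed peak began at 14640123. Whether that region lies at the further start was not tested. DNAJB1 was the only one of the 10 genes whose covered length separated D and B from C and A. The 7 genes without a peak (0 bp) and HSP90AA1 (711 bp) had the same length in all 8 lists and could not separate them. BAG3 was thus the only other gene that varied. Counted by single region and not by gene, 5.98% of all regions lay lower in every list of D and B and 3.3% higher. D and C against B and A is AS against no AS by the record and K512R against WT by the names. There the covered lengths overlapped in all 10 genes, of which only DNAJB1 and BAG3 varied at all. By single region, 0.223% of all regions lay lower and 0.163% higher without overlap.

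**Figure D2:**
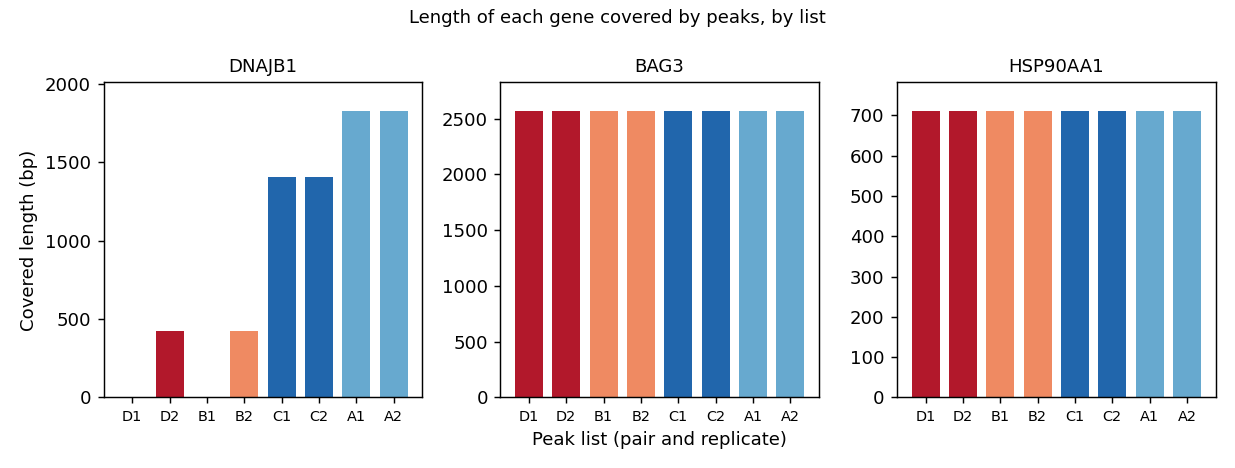
Length in bp covered by peaks in DNAJB1, BAG3 and HSP90AA1, with 1 bar for each list, ordered as D, B, C and A and coloured by pair. DNAJB1 reached 421 bp at most in D and B, against 1407 bp or more in C and A, while BAG3 stayed within 2565 to 2569 bp and HSP90AA1 at 711 bp in every list.

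The covered length of DNAJB1 region 2 averaged 0 bp in D and B and 1407 bp in C and A (4 lists each, with no spread within either set). The region had identical ends wherever it was listed, so this length restates its presence or absence and is not a separate measure. The exact 2-sided permutation test over 70 orders gave p = 0.0286, the smallest it can give. The adjusted p was 0.308 (Benjamini-Hochberg over all 36802 regions), so the difference did not pass 0.05. Every region at the smallest p shares this adjusted value, and it is the lowest of all regions. No region passed, so the adjusted test cannot decide on this one. Region 1 averaged 210.5 bp on both sides. The test takes the 8 lists as independent, and with pairs as the units no exact test could pass 0.05.

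The peak numbers bear on what an absent DNAJB1 peak means. All 8 lists shared the same listed peak before DNAJB1 region 2, at 14606849 to 14606961. Between it and region 1 there was 1 numbered peak in D2, B2, A1 and A2 alike. In A1 and A2 that peak was region 2 and was listed. In D2 and B2 it was not listed, and its position within the 3' part of DNAJB1 or the stretch of 18614 bp beyond it is not given. In D1 and B1, 2 numbered and unlisted peaks lay between the shared peak and the next listed one, at 14640123, a stretch that holds both DNAJB1 regions. C1 and C2 had 4 unlisted numbers between region 2 and the next listed peak. The totals from the shared peak onward also differed. Up to the listed peak at 14640123 there were 2 numbers in D1, 2 in B1 and 4 in B2. A1 had 4 up to 14640022, 2 of them unlisted. Up to 14673337 there were 7 in D2, 6 in C1, 5 in C2 and 6 in A2, with 4 unlisted in both C2 and A2. What these totals say of the DNAJB1 peaks was not tested. Since unlisted numbers remained at each absent region, an absence from the list is not shown to be an absence of a called peak in any of these lists. The count of numbers between shared flanking peaks is a separate measure. In B2 against A2, 1879 regions lost in B against A had the same listed peaks on both sides. The count of numbered peaks between those was lower in B2 for 86.0%, the same for 11.5%, DNAJB1 region 2 among them, and higher for 2.55%.

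Among the lost regions of B against A, 76.9% had at least 1 unlisted number at their place in both lists of B, and 5.47% had none in either. In D against C, 72.1% had one in both lists of D and 8.10% none in either. The counts of lost members over all 10 genes were small. In B against A, 1 of the 8 member regions found in both lists of A was lost, against 19.1% of all such regions and 27.7% of those over 1000 bp, the width class of region 2. In D against C it was 1 of 7, against 25.3% of all and 35.7% of the wide ones. In C against A it was 1 of 8, against 3.23% of all regions. In D against B (AS against no AS in WT input by the record, K512R against WT with AS by the names) it was 0 of 6, against 7.86%. No member was gained in any of the 4 comparisons, for which the shares over all regions absent from the second pair were 26.5% for B against A, 27.0% for D against C, 16.1% for C against A and 8.35% for D against B. No more than 1 member was absent from both lists of the second pair, and so open to gain, in any of the comparisons. With list B2 left out, DNAJB1 region 1 was lost as well in B against A, which made 2, and with D1 left out it was gained in D against C, which made 1.

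Where DNAJB1 had peaks they ranked high. The score is the authors' own value for each peak, its unit is not stated, and it is given here as a percentile within its list. Region 1 scored at the 94.3 percentile in D2, 86.5 in B2, 89.1 in A1 and 85.6 in A2. Region 2 scored at 86.3 and 62.4 in C1 and C2, and at 73.2 and 69.4 in A1 and A2. Both regions thus stood above their lists' medians wherever they were listed, the lowest value being 62.4.

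BAG3 on the plus strand of chromosome 10 (121410882 to 121437329) encodes an exchange factor that links HSP70 to small heat shock proteins and to the removal of damaged proteins by autophagy. All 8 lists held the same 4 regions. Region 1 (121410882 to 121411367, 486 bp) began on the first annotated base, and region 4 (121435976 to 121437329, 1354 bp) ended on the last. Region 2 (121429363 to 121429689, 327 bp) and region 3 (121431767 to 121432168, 402 bp) lay 18481 and 20885 bp from the start. The ends of regions 1 to 3 were identical in all 8 lists, and region 4 ended 4 bp earlier in D1 and 2 bp earlier in A1. Of the 10872 regions in all 8 lists, 78.4% had identical ends throughout. In 7 of the 8 lists no unlisted number lay between the listed peaks around BAG3.

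The order of the 4 BAG3 peaks by score within a list was not the same in every list. Region 1 scored last of the 4 in all 4 lists of D and B, and in 2 of the 4 lists of C and A. Region 4 scored first in 3 of the 4 lists of D and B and in 0 of those of C and A. It stood above region 2 in all 4 lists of D and B, against 1 of the 4 of C and A. These are orders within lists and use no value from another list. They rest on the same scores as the percentiles that follow and are not separate support. How often peaks of other genes change order in this way was not computed. Region 4 scored at the 82.8 and 87.0 percentile in D1 and D2 and at 78.6 and 77.7 in B1 and B2. It scored at 60.8 and 74.5 in C1 and C2, and at 41.6 and 61.6 in A1 and A2. The percentiles of D and B lay above those of C and A without overlap, as did those of 17.3% of the 10872 regions found in all lists, while 29.6% lay below without overlap. The lists differ in length and in the peaks they hold, so a shift in percentile does not show a change in signal. Region 1 scored at 34.1 and 62.4 in D1 and D2 and 26.5 and 61.5 in B1 and B2. In C1 and C2 it scored at 78.7 and 68.3, and in A1 and A2 at 64.8 and 53.1, so the sets overlapped. The low values of region 1 were those of the lists numbered 1 of D and B, which also lacked both DNAJB1 regions. Regions 2 and 3 varied least, from 64.1 to 73.9 and from 75.1 to 82.8 over the 8 lists.

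**Figure D3:**
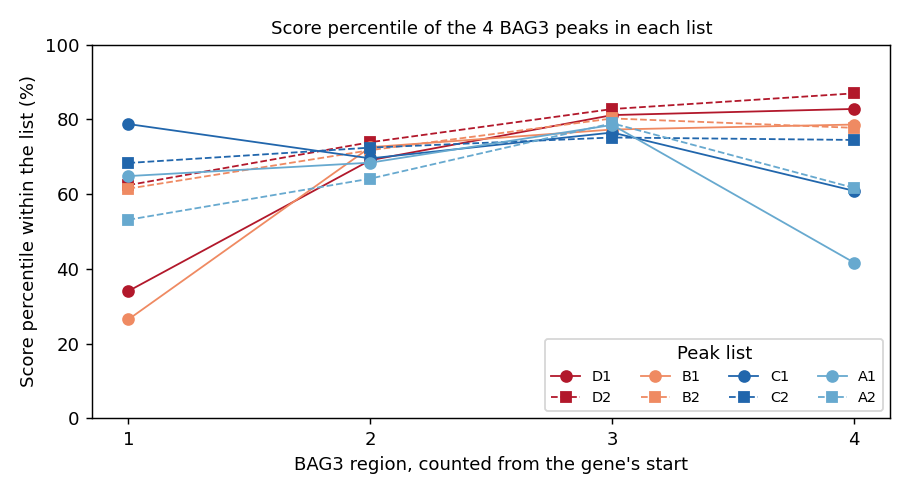
Score percentile within the list (y axis, %) of the 4 BAG3 regions, numbered from the gene's start (x axis). Each line is 1 list, coloured by pair, with circles for replicate 1 and squares for replicate 2. At region 4 the lists of D and B sit between 77.7 and 87.0, above those of C and A at 41.6 to 74.5, while at region 3 all 8 lie between 75.1 and 82.8.

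HSP90AA1 on the minus strand of chromosome 14 (102547075 to 102606086) encodes the stress-inducible cytosolic HSP90, which matures kinases and steroid receptors. Its 2 regions were in all 8 lists with identical ends and covered 711 bp, or 1.20% of the long interval. Region 1 (102605587 to 102606086, 500 bp) began on the first annotated base. Region 2 (102568212 to 102568422, 211 bp) lay 37664 bp downstream of it, and no list held a peak in the last 21137 bp. RefSeq's promoter table gives this gene 2 starts, 52705 bp apart in GRCh38.p14, and the matches printed above lie at the downstream one. Both regions lie closer to the first annotated base than that distance. If this base is the upstream start and the spacing is the same in hg19, both regions lie before the downstream start. In that case no list held a peak between the downstream start and the gene's end. The hg19 position of the downstream start was not analysed here. Unlisted numbers were present around this gene in every list, from 1 to 13.

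Region 1 of HSP90AA1 scored at the 59.9 and 65.5 percentile in D1 and D2, 60.3 and 69.1 in B1 and B2, 73.7 and 79.6 in C1 and C2, and 69.8 and 79.1 in A1 and A2. The percentiles of D and B lay below those of C and A, with the nearest values 69.1 and 69.8. Region 2 scored between 49.6 and 65.3 in D and B and between 64.3 and 67.9 in C and A, which overlap. Its 2 lowest values were those of D1 and B1. Of the regions in all 8 lists, 29.6% lay below without overlap in the same way as region 1.

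**Figure D4:**
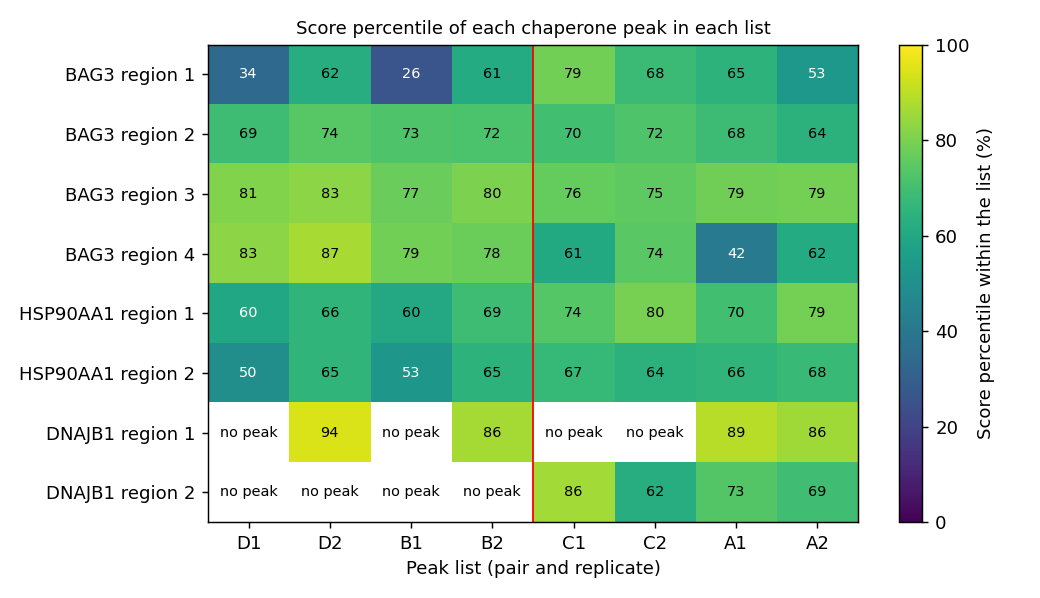
Score percentile within the list (%) of each of the 8 regions (rows) in each of the 8 lists (columns), with the lists of D and B left of the red line and those of C and A right of it. White cells are lists without the peak, and they occur only in the 2 DNAJB1 rows, in D1, D2, B1 and B2 for region 2 and in D1, B1, C1 and C2 for region 1.

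The 7 genes without a peak include both constitutive and stress-inducible chaperones. HSPA1A (chromosome 6, 31783291 to 31785719, plus strand) and HSPA1B (31795512 to 31798031, plus strand) encode the stress-inducible HSP70. HSPA8 (chromosome 11, 122928200 to 122932844, minus strand) encodes the constitutive HSP70, and HSP90AB1 (chromosome 6, 44214848 to 44221614, plus strand) the constitutive HSP90. HSPA5 (chromosome 9, 127997132 to 128003666, minus strand) encodes BiP, the HSP70 of the endoplasmic reticulum. HSPD1 (chromosome 2, 198351308 to 198364639, minus strand) encodes the mitochondrial chaperonin HSP60. HSPB1 (chromosome 7, 75931875 to 75933614, plus strand) encodes a small heat shock protein that holds unfolded clients. None had a peak on either strand in any of the 8 lists. The nearest region outside the interval, on either strand, lay 3124 bp away for HSPD1, 4661 bp for HSPA1B, 5519 bp for HSPA1A and up to 22494 bp for HSPB1, so that widening the intervals by 1000 bp added none.

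For some of these genes the peak numbers leave no room for an unlisted peak. Around HSPA1A and HSPA1B, which lie in the same gap between listed peaks, the numbers of the flanking peaks followed each other in 5 of 8 lists, and up to 3 were missing in the other lists. The same held in 3 lists for HSP90AB1, with at most 1 missing number, and in 1 list each for HSPA5 and HSPD1. Around HSPA8 every list had 1 to 4 unlisted numbers and around HSPB1 3 to 5, so an unlisted peak there is possible in all of them. In all, 15 of the 56 combinations of gene and list had none. The 5 lists of the gap that HSPA1A and HSPA1B share are counted there once for each gene. HSPA1A and HSPA1B are near-identical copies, and their promoter windows were identical at 277 of 301 aligned positions (92.0%). The labels do not say how reads that match both copies were counted, and its part in their lack of peaks was not tested. A gene without a peak is not shown to lack RNA, and how many of all genes have none was not analysed here.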

How the data were processed

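The authors deposited 1 peak list for each of 8 samples. The deposited lists give each peak's position and strand and a score whose unit is not stated. Per the submitters' processing notes, cutadapt 1.9.3, HISAT2 2.0.4 and hg19 were used. The peak names begin with MACS, and the caller's version, control and threshold are not stated in the labels. Samples were grouped by title. Peaks on the same strand that shared 1 bp or more formed a region, and coordinates are hg19, counted from 1. Covered length was compared over all regions by exact permutation, checked on simulated data. Scores only ranked peaks within a list. The 10 genes, their intervals and all measures were chosen with earlier results of these data known, and the peak-number and 3-unit element measures were added after the lists were seen. All 10 genes are named, with every region they hold. Exon and UTR positions, protein identity, a wider chaperone list and peak sequences were not analysed here, since no hg19 annotation, hg19 genome or protein table was used. Tables were computed with pandas 2.3.3 and numpy 2.4.6 under Python 3.11.15, permutations were checked against scipy 1.17.1, and figures were drawn with matplotlib 3.10.9.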

Additional observations from a re-analysis of the deposited data

Results flagged for a closer look

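BAG3 region 3 was flagged because its score percentile differed in opposite directions in 2 comparisons. The percentile was 76.5 and 75.1 in C against 78.5 and 78.9 in A, and 81.1 and 82.8 in D against 77.3 and 80.2 in B. The difference between these 2 differences of means was -6.11 percentile points and was not tested. Each comparison rests on 2 lists against 2, which differ in length, so these shifts in percentile do not show a change in signal. The region was picked for this pattern, and how many other regions share it is not given. The pattern is thus not shown to be unusual.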

How the results depend on the processing

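With peaks above each list's median score only, with each list limited to its top 19953 peaks by score, with peaks joined across gaps of 100 bp, or with intervals extended by 1000 bp, every count of lost and gained member regions stayed as reported. Above the median score, however, BAG3 region 1 remained in 6 lists (not D1 or B1), BAG3 region 4 in 7 (not A1) and HSP90AA1 region 2 in 7 (not D1), so DNAJB1 was then not the only gene with regions missing from some lists. When absence was counted only where peak numbers were consecutive, an alternative chosen after seeing the data, the lost members numbered 0 for B against A, 0 for D against C and 0 for C against A. Leaving out each list in turn gave 1 to 2 lost members in B against A (2 without B2) and 0 to 1 gained in D against C (1 without D1), and moved no other count. DNAJB1 stayed the only gene lower in covered length in every list of D and B above the median score, at equal list length, with extended intervals and with each list left out. This was not computed for joining across gaps or for consecutive numbers. The difference in covered length of DNAJB1 region 2 was -1407 bp in D and B against C and A in every setting for which it was computed. With the replicate number as a block the exact permutation p was 0.0556, the smallest that 36 orders allow, with adjusted p = 0.578, and over the other settings adjusted p ranged from 0.208 to 0.308. Deviations of same-numbered lists correlated across regions at 0.0064 to 0.0203 for covered length and 0.0111 to 0.0305 for presence. These correlations are small and all positive, and cannot decide whether the number pairs samples. D1 and B1 both lacked the DNAJB1 regions. Depth is unknown, and precision rests on the number of lists.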
